A study of Saccharomyces cerevisiae with 12 samples.

Results

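The proteins of the mitochondrial ribosome of budding yeast (Saccharomyces cerevisiae) are almost all encoded in the nucleus. The results below describe the RNA of 46 of their genes. They were chosen by name from the deposited expression table of 6571 genes, as nuclear MRPL, MRPS and MRP genes. The rule uses no measured value, but it was set with earlier results of these data known. Of the 46, 35 encode proteins of the large subunit and 11 proteins of the small subunit. Membership of a subunit was taken from general knowledge, since 3 genes with plain MRP names (MRP7, MRP20 and MRP49) belong to the large subunit.

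Strains of the S288C background were compared by RNA sequencing, with 3 libraries each: WT, and a mutant written tSH2Δ that carries spt6 without the tandem SH2 domain. Both were grown without treatment in YPD, a rich glucose medium, from saturated cultures brought down to a density (OD) of 0.2, and the labels place the RNA harvest 4 h later in one field and at an OD of 1 in another. Spt6 rides on elongating RNA polymerase II, handles histones there and holds its phosphorylated linker through the tandem SH2 domain, and the study asked what part it plays in mRNA stability. The 6 ATAC-seq libraries of the same genotypes were not analysed here.

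Mitochondrial ribosomes sit at the inner membrane and translate the few mRNAs of the mitochondrial genome, most of which encode core subunits of the respiratory chain and the ATP synthase. Their proteins are made in the cytosol and imported, so nuclear mRNA supply has to serve both subunits. Yeast grown on glucose ferments and depends little on respiration. The mRNAs of many of these proteins are known targets of Puf3, an RNA-binding protein that recruits the Ccr4-Not deadenylase and directs their decay on glucose. In the unified naming of ribosomal proteins, a family name starting with u or b marks a relative in bacteria, and one starting with m marks a protein that arose in the mitochondrial lineage.

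The libraries held 20483931 to 27069700 reads, and a member had 392 to 5109 reads in a library. Values are RPKM, the reads of a gene divided by its length and by the size of the library. They were also divided by a median-ratio size factor per library, and this second scale is called rescaled RPKM. The 2 scales differ by nearly the same step for every gene, since the median gene stood 0.57 higher in tSH2Δ (log2) in the RPKM as deposited. A log2 fold change below compares tSH2Δ with WT on rescaled RPKM, computed on log2(RPKM + 1), unless another scale is named. A positive value there means that the gene's ratio of tSH2Δ to WT was above that of the median gene. Amounts are relative to all RNA in the library, and in bulk cultures fewer cells with a transcript and less of it per cell cannot be told apart. All p-values are from limma with Benjamini-Hochberg adjustment over all 6307 genes tested, and a gene is called at an adjusted p under 0.05. Whether the 3 libraries of a strain are separate cultures is not said in the labels, and a p-value here reflects only the spread among them, which may be technical.

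SPT6 (YGR116W), the altered gene, had 174, 182 and 185 rescaled RPKM in WT replicates 1 to 3 and 85.4, 83.8 and 84.3 in tSH2Δ. The strains did not overlap, and the log2 fold change was -1.08 (SE 0.0354, limma adjusted p = 3.51e-08). As deposited it was -0.50. RPKM used the same gene length in both strains (4355 bases), though the mutant gene lacks the stretch for the tandem SH2 domain. What part the missing stretch has in the fall was not tested.

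The median of the 46 genes lay at that of all genes, with members on either side of it. All 46 passed the filter on low values. Relative to the median gene 18 were higher in tSH2Δ, 16 lower and 12 not called, and the median log2 fold change was 0.00, beside 0.01 over all genes tested, of which 83.5% were called. The 18 are 39.1% of the members, where 41.6% of all genes tested were higher. The 16 are 34.8%, where 41.9% of all genes were lower. On this scale both shares lie near the background, so the counts are no result about these genes. After quantile normalization, which gives all libraries the same distribution of values, 24 members were higher (52.2%) and 9 lower (19.6%), where 40% of all genes were higher and 41.1% lower (81.1% called). The share of members that were lower thus depends on the scaling.

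In the RPKM as deposited, 42 members were higher and 4 lower, and the median log2 fold change was 0.58. On that scale 72.4% of all genes tested were higher and 17.3% lower (89.7% called), with a median of 0.57. The members' shares were 91.3% higher and 8.7% lower, so their median lay at that of all genes while fewer of them were lower. Each of the 4 that were lower lies on chromosome XI. Summed over the 46 genes, RPKM came to 3548 ± 60.2 for WT against 5048 ± 42.2 for tSH2Δ (SD, n = 3), which is 0.432% and 0.606% of the RPKM of all genes. After rescaling the sums were 4335 ± 66.3 and 4118 ± 34.7. The members thus took a larger share of the summed RPKM in tSH2Δ, while that of 137 cytosolic ribosomal protein genes went from 20.2% to 15.2%. The members' lower rescaled sum rests on the 5 on chromosome XI, since that of the other 41 was 3436 ± 38.8 in WT and 3632 ± 32 in tSH2Δ. The rescaled median of the 46 was 86.8 and 89.7. Library values of the strains did not overlap for 34 members after rescaling (73.9%), where 84.7% of all genes tested did not overlap. As deposited none of the 46 overlapped and 42 had the higher values in tSH2Δ, beside 89.9% of all genes without overlap and 72.5% without overlap and higher.

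**Figure D1:**
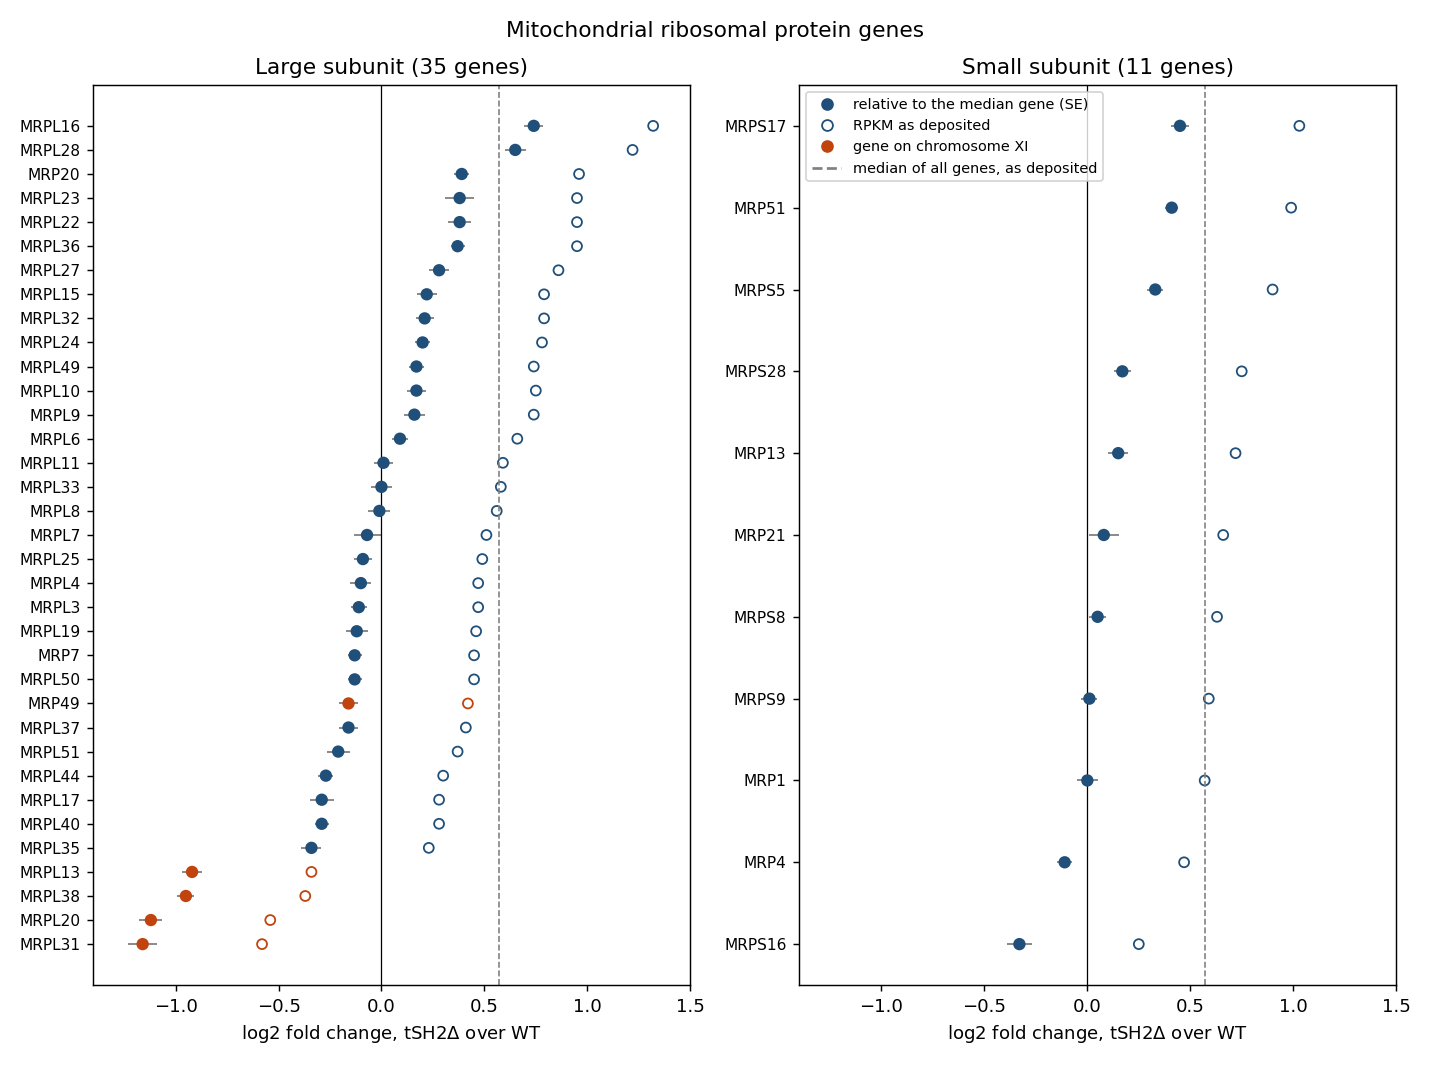
Log2 fold change (x axis, tSH2Δ over WT) of each of the 35 large-subunit genes (left) and 11 small-subunit genes (right). Filled points with SE bars are relative to the median gene, open points are RPKM as deposited, orange marks chromosome XI, and the dashed line is the median of all genes as deposited (0.57). Most filled points lie between -0.34 and 0.45, with 4 orange points from -1.16 to -0.92 and MRPL28 and MRPL16 above 0.60.

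The large subunit held the extremes in both directions. Of its 35 genes 13 were higher (37.1%) and 14 lower (40%). Their median log2 fold change was -0.07, with a range from -1.16 to 0.74. Of the 11 small-subunit genes 5 were higher (45.5%) and 2 lower (18.2%). Their median was 0.08, with a range from -0.33 to 0.45. Relative to the median gene 41.6% of all genes tested were higher and 41.9% lower. As deposited, the large subunit had 31 higher and 4 lower (median 0.51), and the small subunit 11 higher and 0 lower (median 0.66). On that scale 72.4% of all genes tested were higher and 17.3% lower. After quantile normalization the large subunit had 16 higher and 9 lower (median 0.09), and the small subunit 8 higher and 0 lower (median 0.22). There 40% of all genes were higher and 41.1% lower. In each of these scalings the median of the small subunit was the higher one. Without chromosome XI the large-subunit median was 0.01 relative to the median gene, 0.58 as deposited and 0.13 after quantile normalization. No test was made of the difference between the lists.

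The summed RPKM of the 35 large-subunit genes over that of the 11 small-subunit genes was 3.205, 3.168 and 3.128 in WT replicates 1 to 3. In tSH2Δ it was 2.709, 2.672 and 2.68, so every mutant library was below every WT library. All 5 members on chromosome XI belong to the large subunit. Without them the ratio was 2.318, 2.315 and 2.275 in WT and 2.281, 2.235 and 2.24 in tSH2Δ, and the strains overlapped. With 32 further mitochondrial ribosomal protein genes added, the ratio of 45 large-subunit to 33 small-subunit genes came to 1.39 ± 0.0325 for WT against 1.21 ± 0.0112 for tSH2Δ (SD, n = 3). Leaving out chromosome XI there, which takes 5 large-subunit genes and 1 small-subunit gene, gave 1.15 ± 0.0253 and 1.09 ± 0.0107, and there the strains did not overlap. A constant factor per library leaves this ratio unchanged, and it was not computed after quantile normalization.

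**Figure D2:**
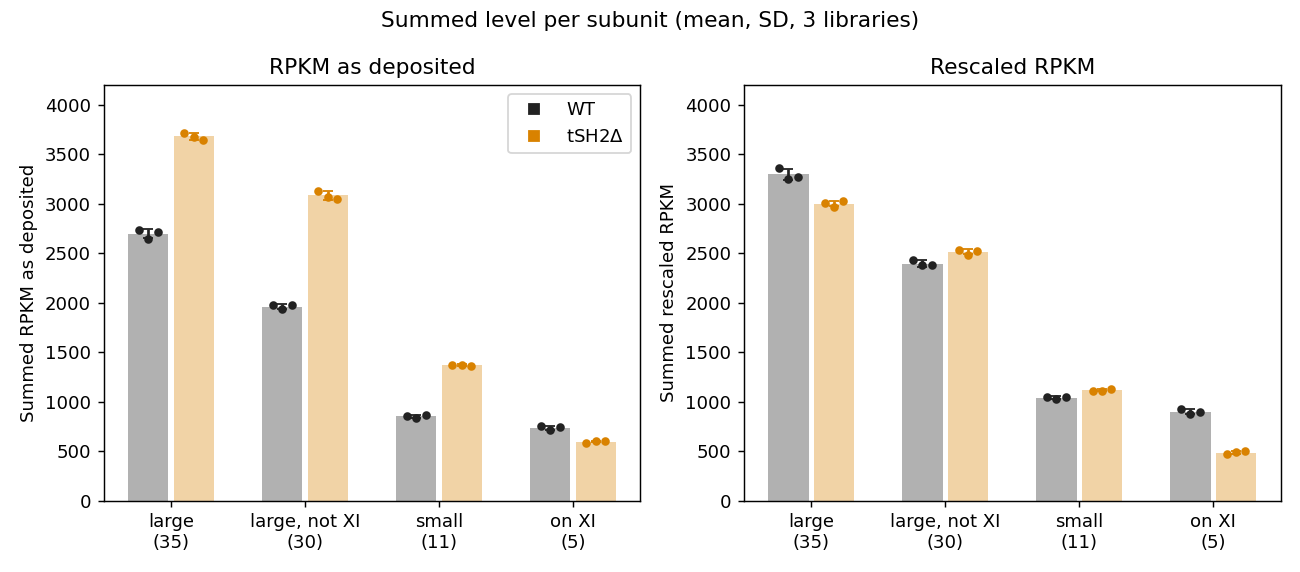
Summed level (y axis, RPKM as deposited on the left, rescaled RPKM on the right) of the large subunit, the large subunit without chromosome XI, the small subunit and the 5 members on chromosome XI. Bars are means of 3 libraries with SD, and points are libraries. The large subunit without chromosome XI and the small subunit are 1.57 and 1.61 times WT as deposited, while the chromosome XI members are lower in tSH2Δ on both scales.

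Of the 5 members on chromosome XI, 4 had the largest falls among the 46 genes. MRPL31 (YKL138C, chromosome XI, 185286 to 185681, RefSeq assembly R64), which encodes mL60, had 195, 189 and 224 rescaled RPKM in WT and 83.8, 93.6 and 92.1 in tSH2Δ. Its log2 fold change was -1.16 (SE 0.0702, limma adjusted p = 8.66e-07). MRPL20 (YKR085C, chromosome XI, 599094 to 599681), which encodes mL58, had 165, 145 and 144 in WT and 68.0, 67.7 and 71.1 in tSH2Δ, and its log2 fold change was -1.12 (SE 0.0556, limma adjusted p = 2.82e-07). In both genes every mutant library was below 100 and every WT library above 140.

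MRPL38 (YKL170W, chromosome XI, 130634 to 131050), which encodes the bacterial relative uL14, had 204, 193 and 188 rescaled RPKM in WT and 98.0, 103 and 99.4 in tSH2Δ. Its log2 fold change was -0.95 (SE 0.0416, limma adjusted p = 1.41e-07). MRPL13 (YKR006C, chromosome XI, 450423 to 451217), which encodes mL50, had 246, 241 and 219 in WT and 125, 120 and 127 in tSH2Δ, and its log2 fold change was -0.92 (SE 0.0497, limma adjusted p = 4.32e-07). These 4 genes lie on both arms of the chromosome, and their falls held as deposited, where the log2 fold changes ran from -0.58 to -0.34. They were called lower in every setting that could be fitted to them.

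MRP49 (YKL167C, chromosome XI, 133721 to 134134), which encodes mL61, had 120, 109 and 117 rescaled RPKM in WT and 100, 102 and 107 in tSH2Δ. Its log2 fold change was -0.16 (SE 0.0467, limma adjusted p = 0.0119), and it was 0.42 as deposited and 0.07 after quantile normalization. It is the only one of the 5 whose direction turned with the scaling. The strains lay apart by a few RPKM, a much smaller gap than in MRPL38, from which KKQ8 alone separates it. In the stretch between NNK1 and MCD4, whose genes are named here as neighbours after their values were seen, the log2 fold changes in order were -0.51 for NNK1, -0.95 for MRPL38, -0.19 for KKQ8, -0.16 for MRP49, -1.23 for TPK3 and -1.66 for MCD4. MRP49 and the adjoining kinase gene KKQ8 thus stood closer to the median gene than the genes on either side.

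Genes of chromosome XI were lower as a whole. Of 313 genes tested there that have a RefSeq match, 277 were lower and 18 higher. Their median log2 fold change was -0.86, against 0.04 on all other chromosomes. As deposited the medians were -0.29 and 0.61. The 4 strongly lower members lie between the lower quartile of the genes of their chromosome (-1.36) and the median. MRP49 lies above the upper quartile of these genes (-0.53). The part that this chromosome-wide difference has in the members' values was not tested. RPKM does not separate the number of copies of a chromosome from the RNA made per copy, which bears on these 4 genes and on the ratio of the subunits. The other 41 members had a median of 0.05, with 18 higher and 11 lower, and their falls went no lower than -0.34. Of all 5405 genes tested on other chromosomes that have a RefSeq match, 2383 were higher and 2143 lower.

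Among the other members the largest fall was that of MRPL35 (YDR322W, chromosome IV), which encodes mL38. It had 57.7, 56.0 and 55.1 rescaled RPKM in WT and 45.9, 41.2 and 45.3 in tSH2Δ, and its log2 fold change was -0.34 (SE 0.0484, limma adjusted p = 0.000176). The libraries did not overlap, but as deposited the gene was higher in tSH2Δ, at 0.23. The other 10 members that were lower off chromosome XI had log2 fold changes from -0.33 to -0.11, and each of them was above 0 as deposited. These falls are therefore falls against the median gene and not against the library total.

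MRPL16 (YBL038W, chromosome II, 146187 to 146885) had the largest rise. It encodes uL16, a protein next to the peptidyl transferase centre, where peptide bonds are formed. It had 76.8, 76.4 and 71.5 rescaled RPKM in WT and 131, 127 and 119 in tSH2Δ, and its log2 fold change was 0.74 (SE 0.0467, limma adjusted p = 1.13e-06). MRPL28 (YDR462W, chromosome IV, 1386073 to 1386516), which encodes mL40, had 61.4, 60.6 and 68.4 in WT and 101, 96.5 and 102 in tSH2Δ, and its log2 fold change was 0.65 (SE 0.0519, limma adjusted p = 4.81e-06). In both genes the lowest mutant library was well above the highest WT library, and no other member reached 0.50.

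MRPS17 (YMR188C, chromosome XIII, 636291 to 637004), which encodes uS17, led the small subunit with 95.5, 99.9 and 104 rescaled RPKM in WT and 140, 138 and 130 in tSH2Δ. Its log2 fold change was 0.45 (SE 0.0440, limma adjusted p = 1.75e-05). MRP51 (YPL118W, chromosome XVI, 326628 to 327662), a small-subunit protein placed in the bS1 family, had 115, 113 and 111 in WT and 152, 149 and 151 in tSH2Δ, and its log2 fold change was 0.41 (SE 0.0323, limma adjusted p = 4.01e-06). MRP20 (YDR405W, chromosome IV, 1277646 to 1278437), which encodes uL23 at the mouth of the peptide exit tunnel, had 45.6, 45.9 and 47.2 in WT and 63.0, 59.4 and 60.4 in tSH2Δ, and its log2 fold change was 0.39 (SE 0.0377, limma adjusted p = 1.56e-05). The strains stood apart in all 3 genes. The other 13 members that were higher had log2 fold changes from 0.15 to 0.38. Of the 18, 16 were called higher in every setting tried, the exceptions being MRPL9 and MRP13.

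**Figure D3:**
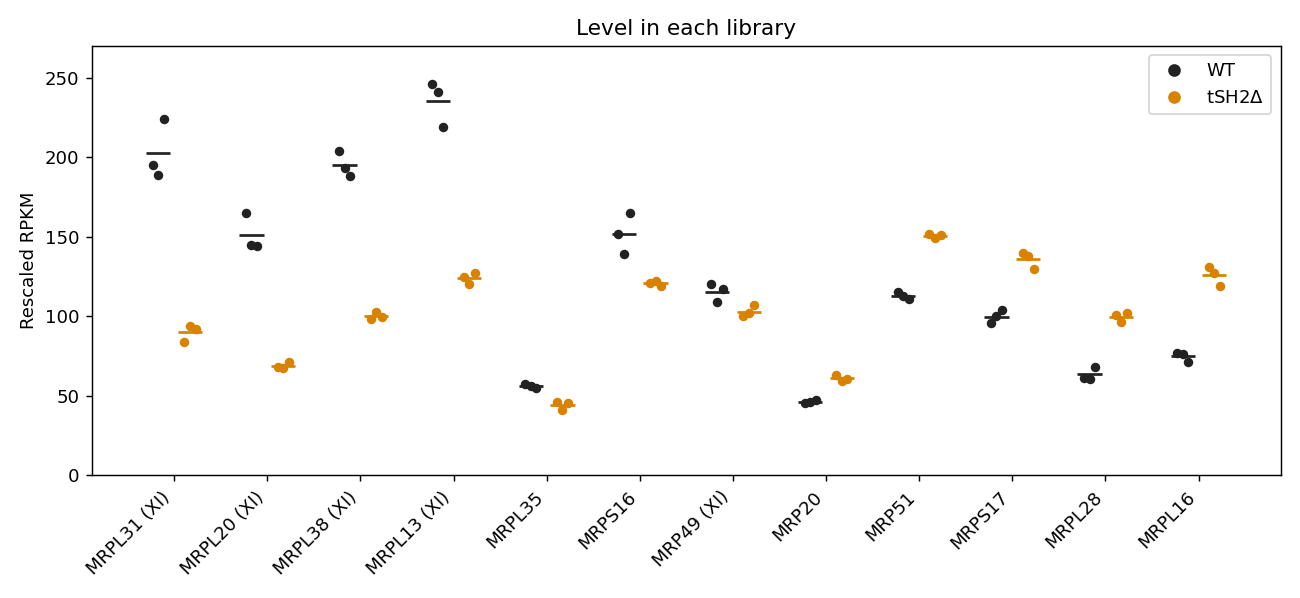
Rescaled RPKM (y axis) of 12 members in each library, ordered from the largest fall to the largest rise, with WT in black and tSH2Δ in orange, lines at the means and XI marking chromosome XI. The strains are separate for every gene shown, and the WT libraries of MRPL13, MRPL31 and MRPL38 are the highest values, at 188 to 246.

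The 12 members that were not called had log2 fold changes from -0.12 to 0.09 and adjusted p from 0.0692 to 0.994 (limma). They were MRPL4, MRPL6, MRPL7, MRPL8, MRPL11, MRPL19, MRPL25 and MRPL33 of the large subunit and MRPS8, MRPS9, MRP1 and MRP21 of the small subunit. MRPL33, which encodes uL30, had 142, 130 and 137 rescaled RPKM in WT and 129, 135 and 145 in tSH2Δ. MRPS9, which encodes uS9, had 114, 114 and 108 in WT and 110, 113 and 115 in tSH2Δ. For each of the 12 the libraries of the strains overlapped on this scale. With RPKM as deposited all 12 were called higher, at 0.46 to 0.66, as were 72.4% of all genes tested.

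By position in the large subunit, genes of a site differed in direction relative to the median gene. Sites were assigned here to only 10 genes, all with bacterial relatives, and other members may lie at the same sites. As deposited all 10 of these genes were higher, as were 72.4% of all genes tested. Of the exit tunnel proteins, MRP20 and MRPL22 (uL22, 0.38) rose and MRPL40 (uL24) stood lower at -0.29 but at 0.28 as deposited, while MRPL4 (uL29) was not called at -0.10 but was called at 0.47 as deposited and at -0.37 after quantile normalization. Beside MRPL16 at the peptidyl transferase centre, MRP7, which encodes bL27, stood at -0.13 (limma adjusted p = 0.00834), but at 0.45 as deposited and 0.06 after quantile normalization. In the central protuberance MRPL36 (bL31) rose by 0.37, and MRPL7 (uL5) stood at -0.07. Both proteins at the base of the stalk that binds translation factors, MRPL11 (uL10) and MRPL19 (uL11), were not called, at 0.01 and -0.12.

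By descent, the counts of large-subunit proteins of the mitochondrial lineage and of relatives of bacterial proteins depended on the scaling. They are set here beside the 41.6% higher and 41.9% lower of all genes. Of 14 genes of the mitochondrial lineage 3 were higher and 10 lower, and the median log2 fold change was -0.19. Of 21 with bacterial relatives 10 were higher and 4 lower (median 0.09). Without chromosome XI, which holds 4 of the former and 1 of the latter, the counts were 3 higher and 6 lower of 10 (median -0.14), and 10 higher and 3 lower of 20 (median 0.13). As deposited without chromosome XI all 10 and all 20 were higher (medians 0.44 and 0.70), where 72.4% of all genes were. After quantile normalization without chromosome XI the counts were 3 higher and 3 lower, and 13 higher and 2 lower. There 40% of all genes were higher and 41.1% lower. The difference between these lists was not tested. In the small subunit 4 of 9 with bacterial relatives were higher and 2 lower, and MRP13 (mS44, 0.15) was higher and MRP1 (mS43) not called.

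Levels among the members, whose proteins are mostly present in a single copy per ribosome, spanned 7.76-fold in WT. MRPL13 was highest at 235 ± 14.2 rescaled RPKM (SD, n = 3), followed by MRPL31 at 202 ± 18.7 and MRPL38 at 195 ± 8.33, whose spreads overlap. MRPL4, for uL29, was lowest at 30.3 ± 1.37, and the median was 86.4. The 3 highest genes in WT are all on chromosome XI.

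In tSH2Δ the span was 5.35-fold, and MRP51 was highest at 151 ± 1.21, followed by MRPL33 and MRPS17 at 136 each. MRPL31 went from rank 2 to rank 24 of 46, MRPL20 from rank 5 to rank 38 and MRP51 from rank 9 to rank 1, while MRPL4 stayed lowest at 28.2 ± 1.24. The SD of log2 levels over the 46 genes was 0.567 to 0.592 in WT libraries and 0.451 to 0.466 in tSH2Δ libraries. Without chromosome XI it was 0.454 to 0.485 and 0.464 to 0.480. The narrower spread in the mutant was thus seen only with the 5 genes of chromosome XI included. MRPS16 (YPL013C, chromosome XVI), which encodes bS16, was the highest small-subunit gene in WT, with 152, 139 and 165 rescaled RPKM there and 121, 122 and 119 in tSH2Δ. Its log2 fold change was -0.33 (SE 0.0589, limma adjusted p = 0.000825), but 0.25 as deposited and 0.01 after quantile normalization.

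In the authors' deposited table of changed genes, 17 members are listed as higher in tSH2Δ and 2 as lower, and 27 are not listed. The 17 are 37.0% of the members, where that table lists 36.6% of the 6571 genes as higher and 7.38% as lower. The largest log2 ratio among them in the authors' deposited table is 1.32 for MRPL16 (adjusted p = 4.34e-31, from the authors' DESeq2 test). Its 2 lower members are MRPL31 (-0.59) and MRPL20 (-0.54).

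Some members share their place with another annotated reading frame, and it is not given whether reads were counted by strand. MRPL51, which encodes mL43, overlaps YPR099C, which had 140 and 118 rescaled RPKM in WT and tSH2Δ against 148 and 127 for MRPL51 itself. Reads of both cannot be told apart, and the log2 fold change of MRPL51 (-0.21) is uncertain. MRPL38 shares most of its span with the dubious reading frame YKL169C, which had 193 to 212 rescaled RPKM in WT and 102 to 108 in tSH2Δ, much like MRPL38. MRPL19 overlaps YNL184C at 30.8 and 27.6 rescaled RPKM, and MRP4 overlaps YHL005C at 6.61 and 4.86, both well below the member itself.

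Other genes of mitochondrial translation were described by lists of their roles. Of 32 further mitochondrial ribosomal protein genes 13 were higher and 7 lower (median 0.08), where 41.6% and 41.9% of all genes tested were. As deposited 29 of the 32 were higher and 0 lower, where 72.4% and 17.3% of all genes were. RSM18 (bS18) rose furthest, from 128 ± 0.524 to 209 ± 10.9 rescaled RPKM (log2 fold change 0.70, limma adjusted p = 9.71e-07), and YML6 (uL4) rose by 0.53. MRP17 (bS6, on chromosome XI) stood at -0.67 and MRPL39 (bL33) at -0.60, and neither was called as deposited (-0.09 and -0.02). RSM25 (0.39) and MRX14 (0.32, not called at 0.18 after quantile normalization) were higher, and IMG1 (-0.48) and EHD3 (-0.43) lower, though IMG1 and EHD3 stood at 0.09 and 0.15 as deposited.

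Translational activators load single mitochondrial mRNAs, such as those of cytochrome oxidase, onto the ribosome. Of 13 such genes 10 were higher and 0 lower (median 0.34), where 41.6% and 41.9% of all genes tested were. ATP22, for the mRNA of an ATP synthase subunit, went from 27.2 ± 0.139 to 67.9 ± 1.27 rescaled RPKM (log2 fold change 1.29, limma adjusted p = 1.75e-08), and PET111 rose by 0.91. After quantile normalization 7 of the 13 were higher and 2 lower (median 0.19), where 40% and 41.1% of all genes were. Of 12 mitochondrial tRNA synthetase genes 6 were higher and 5 lower (1 and 7 after quantile normalization), with MSK1 at 0.57 and MST1, on chromosome XI, at -0.76. NAM2 (0.25, not called after quantile normalization) was also higher, and MSE1 (-0.30) was lower but stood at 0.25 as deposited.

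Of 7 translation factors 2 were higher and 3 lower, where 41.6% and 41.9% of all genes tested were. GUF1 rose by 0.79 and IFM1, the initiation factor, by 0.44, and the release factor gene MRF1 fell from 26.6 ± 0.867 to 13.4 ± 0.320 rescaled RPKM (log2 fold change -0.93, limma adjusted p = 3.52e-07). TUF1, the elongation factor, stood at -0.62 and was not called as deposited (-0.04) or after quantile normalization (-0.08). Of 7 assembly factors 4 were higher and 3 lower, with GEP3 (0.96) and the rRNA methyltransferase gene MRM2 (0.69) up and RSM22, on chromosome XI (-0.81), and the helicase gene MRH4 (-0.26, but 0.30 as deposited) down. Among 3 inner membrane proteins that bind the ribosome, the insertase gene OXA1 fell by 0.69 (-0.11 as deposited), MDM38 stood at -0.13 (0.45 as deposited) and MBA1 at 0.29. The mitochondrial RNA polymerase gene RPO41 stood at -0.32 (0.25 as deposited) and its factor MTF1 at 0.23 (-0.05 after quantile normalization).

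Among known regulators, PUF3 was not called, with 30.1 ± 1.22 rescaled RPKM in WT and 28.9 ± 1.44 in tSH2Δ (log2 fold change -0.05, limma adjusted p = 0.353), and it stood at 0.51 as deposited and -0.32 after quantile normalization. HAP2, HAP3 and HAP5, the DNA-binding subunits of the activator of respiratory genes, rose by 0.77, 0.63 and 0.92. HAP4, its activating subunit on chromosome XI, went from 331 ± 28.8 to 220 ± 4.23 rescaled RPKM (log2 fold change -0.59, limma adjusted p = 2.91e-05), but was not called as deposited (-0.01) or after quantile normalization (-0.02).

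Cytosolic ribosomal protein genes give the contrast. Of 137, 132 were lower and 3 higher relative to the median gene, where 41.9% and 41.6% of all genes were. As deposited 107 were lower and 8 higher (all genes 17.3% and 72.4%), and after quantile normalization 67 and 36 (all genes 41.1% and 40%). The median log2 fold change was -0.96, against 0.00 for the 46 mitochondrial ones. Their summed RPKM as deposited was 0.763 times WT in tSH2Δ, where that of the mitochondrial members was 1.42 times WT. These genes are far more abundant, with a median of 1299 rescaled RPKM in WT, and log2 fold changes fell with level across all genes tested (Spearman rho -0.468 over 6307 genes, which share libraries and depth). After quantile normalization that rho was -0.0456, and the medians were -0.14 for the cytosolic and 0.13 for the mitochondrial genes. Among the 920 genes of any function in the middle range of the members' levels, 72.0 to 107 rescaled RPKM, the median was -0.12, with 33.8% higher and 52.2% lower. Over the members' whole range, 29.3 to 180 rescaled RPKM, it was 0.02 among 3991 genes, with 42.9% higher and 41% lower. The difference between the lists was not tested.

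**Figure D4:**
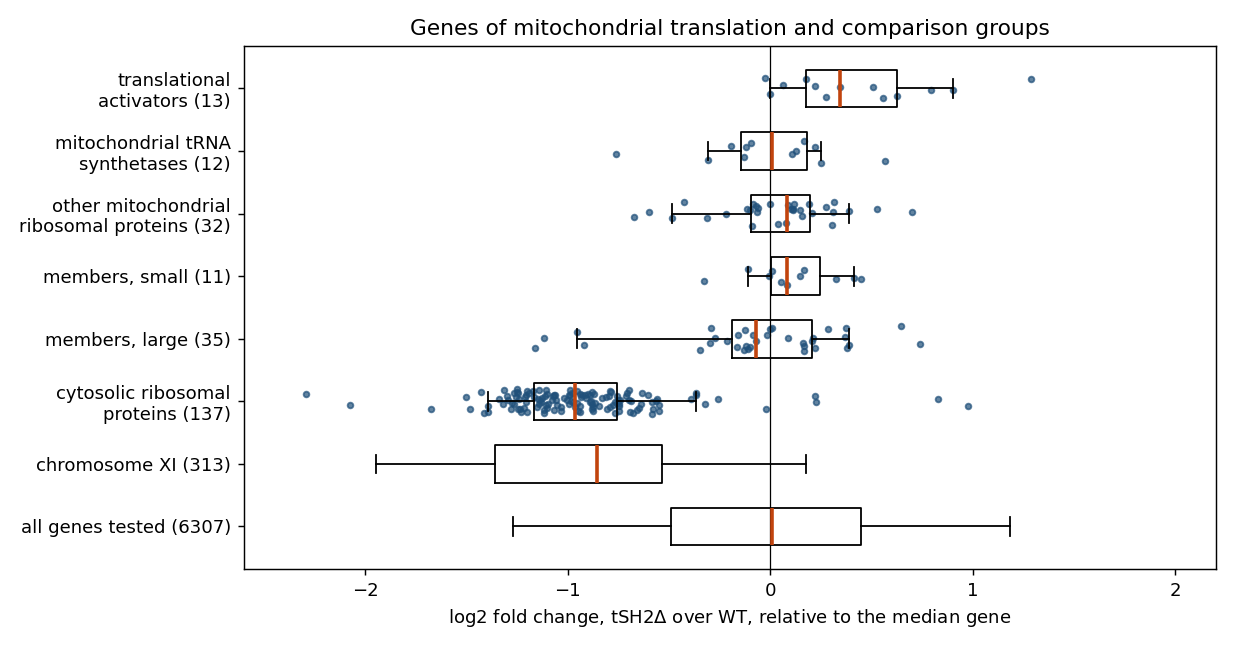
Log2 fold change relative to the median gene (x axis) for gene groups (y axis, number of genes in brackets). Boxes show quartiles with the median in orange, whiskers the 5th and 95th percentiles, and points single genes in groups under 200. Medians are 0.01 for all genes, -0.86 for chromosome XI, -0.96 for cytosolic ribosomal proteins, -0.07 and 0.08 for the large and small subunit and 0.34 for translational activators.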

How the data were processed

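RNA-seq was measured in 6 libraries, 3 WT and 3 tSH2Δ. The authors deposited RPKM per gene and library, and a second table whose columns, per the file headers, give a log2 of the strains' mean RPKM + 1 divided by each other and a DESeq2 adjusted p-value. Per the submitters' processing notes the build was sacCer3, and the tools, named without roles, include Trim Galore 0.4.1, Bowtie 1.1.2, HTSeq 0.6.1 and DESeq2. The kit was stranded per the labels' protocols, but the annotation and the strand setting used in counting were not given in the sources used here. Multiplied by gene length, RPKM fell on whole steps of 1 read in 100% of values (tolerance 0.01 reads), which gave reads per gene. A row naming no gene held 0.513% to 0.926% of reads and was left out.

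RPKM was divided by median-ratio size factors (0.813 to 0.829 in WT, 1.21 to 1.24 in tSH2Δ). Testing covered genes reaching 1 RPKM in 3 or more libraries and was two-sided, with limma 3.58.1 in R 4.3.3 (lmFit, eBayes with trend) on log2(RPKM + 1). The pseudocount understates changes of low genes. In data simulated for this comparison (6297 genes), the fit recovered 60% of genes changed 1.2-fold and 98% of those changed 1.5-fold. No replicate pair agreed within sampling noise, so none was merged as a library deposited more than once. The chi-square per gene was 3.12 and 3.22 between replicates 1 and 2 and 9.01 to 18.5 against replicate 3, which does not show that the libraries are independent cultures.

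The members, the lists, the subunit and family of each member and the rule for named genes were chosen with earlier results of these data known. The rule takes SPT6, the 5 largest rises and falls among called members, the highest-level members of each subunit, those on chromosome XI, those not called and, per list, up to 2 called genes each way. Genes named beyond it serve as role examples, neighbours or overlaps. Names and coordinates came from RefSeq R64, the assembly of sacCer3, where 5897 of 6571 IDs and all 46 members matched.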

Additional observations from a re-analysis of the deposited data

How the results depend on the processing

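The scaling decides the direction of many members. With RPKM as deposited 42 members were higher and 4 lower (31 and 4 in the large subunit, 11 and 0 in the small), against 4565 and 1091 over all genes, and the medians were 0.58 for all members, 0.51 for the large and 0.66 for the small subunit. Apart from those 4, the members and PUF3 that had stood at or below 0 turned positive on that scale, at 0.23 (MRPL35), 0.25 (MRPS16), 0.28 (MRPL17, MRPL40), 0.30 (MRPL44), 0.37 (MRPL51), 0.41 (MRPL37), 0.42 (MRP49), 0.45 (MRPL50, MRP7), 0.46 (MRPL19), 0.47 (MRPL3, MRPL4, MRP4), 0.49 (MRPL25), 0.51 (MRPL7, PUF3), 0.56 (MRPL8), 0.57 (MRP1) and 0.58 (MRPL33). After quantile normalization 24 members were higher and 9 lower, against 2521 and 2592 over all genes, with 9 lower in the large subunit and 8 higher and 0 lower in the small, and medians of 0.13, 0.09 and 0.22 for all, large and small. Members that turned there were MRPS16 (0.01), MRPL19 (0.05), MRP7 (0.06), MRP49 (0.07), MRP4 (0.08), MRPL50 (0.09), MRPL25 (0.11), MRP1 and MRPL51 (0.14) and MRPL33 (0.34). Neither MRPL19 nor MRPL25 was called there or relative to the median gene.

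Leaving out each library in turn gave 17 to 19 members higher and 14 to 18 lower, with 12 to 14 higher and 13 to 16 lower in the large subunit and 4 to 5 higher and 1 to 2 lower in the small. Of all genes tested, 2442 to 2585 were higher and 2511 to 2599 lower in these fits. The medians ran from -0.02 to 0.04 for all members, -0.11 to -0.02 for the large and 0.02 to 0.13 for the small subunit. Of the lower small-subunit genes, MRP4 lost its call without WT replicate 2 or tSH2Δ replicate 2. MRPL3, MRPL9 and MRP13 also lost theirs without 1 or more single libraries. Calls were gained by MRPL6 (0.12) without WT replicate 1, MRPL19 (-0.18) without WT replicate 2 and MRPL4 (-0.13) and MRPL25 (-0.12) without WT replicate 3. With the replicate number as a block 17 were higher and 14 lower, with 1 small-subunit gene lower, the 3 lost calls being MRPL3, MRPL9 and MRP4. Same-numbered libraries did not deviate together (correlations of -0.25, -0.0863 and -0.277 over 6307 genes), so the numbers were not taken as pairs. Without chromosome XI before scaling, 16 of 41 members were higher and 14 lower, with MRPL9 and MRP13 no longer higher and MRPL4, MRPL19 and MRPL25 lower. Shares over all genes are not set beside the counts with the block or without chromosome XI. Those counts show which calls changed and are no result about the members. Pseudocounts of 0.1 and 5, no filter or 5 RPKM, RefSeq genes alone, and limma voom on whole reads, added after seeing the data, changed no member's call. The planned count tests with edgeR and DESeq2 were not run, since the deposited unit is RPKM. The planned motif descriptions were not made, as no sequence was used here. Each member had at least 392 reads in a library, and changes of the size seen in members that were not called lie below those the simulation recovered well.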

Other observations

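Of the 46 members, 27 have as their upstream neighbour a gene on the other strand that was tested. In 11 of these pairs both genes were called, and in 6 (54.5%) they went the same way, where 604 of 1074 such pairs across the genome did (56.2%). MRPL16 and its divergent neighbour URA7, a CTP synthase gene chosen here after its value was seen, went opposite ways, at 0.74 and -1.32 relative to the median gene. MRPL13 and its neighbour MEH1, both on chromosome XI, were both lower, at -0.92 and -0.85.

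Log2 fold change and gene length were weakly related over the members (Spearman rho 0.174 over 46 genes) and over all genes tested (-0.0149), and the points share the same libraries.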
